A study of Mus musculus with 12 samples.

Results

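The 85 genes described here encode nuclear subunits of the respiratory chain and of ATP synthase in mouse left ventricle, and they were taken by gene symbol from a table of 17052 genes. The symbols were Sdha to Sdhd, those beginning with Ndufa, Ndufb, Ndufc, Ndufs or Ndufv and a digit, with Uqcr, with Cox4 to Cox8, or with Atp5. By complex they divide into 39 genes of complex I, 4 of complex II, 8 of complex III, 17 of complex IV and 17 of complex V. Messenger RNA was sequenced from the left ventricles of 12 C57BL/6 mice, each library from a separate animal, with 3 mice in each of 4 groups. All mice were operated on at 8 weeks of age and sampled at 12 weeks. Sham+control mice had sham surgery and no pimobendan, and Sham+pimobendan mice had sham surgery followed by oral pimobendan at 1 mg/kg/day for 4 weeks. TAC+control mice were given no pimobendan after transverse aortic constriction (TAC), in which the arch of the aorta is narrowed with a ligating clip so that the left ventricle pumps against a higher pressure. TAC+pimobendan mice had the same constriction and the same oral course of drug. Pimobendan is a heart failure drug that sensitizes the thin filament to calcium and inhibits phosphodiesterase 3 in muscle. What the control mice received in its place, and the sex of the animals, are not given in the sources used here.

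The respiratory chain passes electrons from NADH (through complex I) and from succinate (through complex II) to ubiquinone, then through complex III and cytochrome c to complex IV, which reduces oxygen to water. Complexes I, III and IV pump protons across the inner mitochondrial membrane, and complex V, the ATP synthase, uses the proton gradient to make ATP. Heart muscle is packed with mitochondria and depends on this system for nearly all of its ATP, and several complex IV subunits exist in a muscle isoform and an isoform made in most tissues. Most subunits are nuclear genes. The subunits encoded by mitochondrial DNA, a list of 13 genes, are not analysed here, since 0 of the 13 had a row in the table. Levels of mRNA, which are given here, do not measure assembled complexes or respiration.

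Values are FPKM, fragments scaled to the length of the transcript and the size of the library, so that levels of different genes can be set side by side per length. Of the 85 genes, 83 reached at least 1 FPKM in at least 3 libraries and were tested, out of 11415 genes tested in all. The other members were Cox7b2, listed at 0 to 0.62 FPKM, and Ndufb4b, listed at 0 to 2.52 FPKM. Ndufb4, Ndufb4b and Ndufb4c are near-identical copies between which reads can be divided, so the values of each are uncertain. The symbol rule also takes in Atp5s, a coupling factor of ATP synthase rather than a strict subunit, Cox7a2l, which joins complexes III and IV, and Ndufa4, now placed with complex IV.

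The libraries were alike in their totals and rich in cardiomyocyte transcripts. Summed FPKM ran from 593203 to 643478 per library. The table holds no counts, and the depth of each library is unknown. The 8 cardiomyocyte markers (among them Myh6, Tnnt2 and Actn2) were detected in all 12 libraries and summed to between 49897 and 58074 FPKM, with no defining marker at 0. The first Sham+control mouse stood apart from the other members of its group. Its median subunit gene stood at -0.11 relative to the Sham+control mean on the log2 scale, against 0.03 and 0.06 in the other mice of that group, so the comparisons that use Sham+control, the interaction included, are also given without it. On the same scale the third Sham+pimobendan mouse stood apart at 0.13, against -0.04 and -0.03 in its group. The comparisons that use Sham+pimobendan are also given without that mouse. In such bulk tissue, fewer cells of a type and less RNA per cell cannot be told apart.

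Subunit genes were among the most abundant messengers of the ventricle. Together they made up 15.6% ± 0.484 of summed FPKM in Sham+control mice (SD, n = 3) and 15.7% ± 0.626 in Sham+pimobendan mice. After TAC the share was 15.5% ± 0.297 without and 14.9% ± 0.116 with pimobendan. The 3 TAC+pimobendan libraries, at 14.8% to 15.1%, lay below all TAC+control and Sham+pimobendan libraries (15.2% to 16.4%) and overlapped only Sham+control, whose first mouse stood at 15.0%. The median gene of complex I had a mean of 613 FPKM over the 12 mice, against 629 for complex II, 1030 for complex III, 1845 for complex IV and 1857 for complex V. Within complex I the range ran from Ndufa4l2 at 31.8 FPKM to Ndufa4 at 2846 FPKM, and within complex IV from Cox6b2, known as a testis isoform, at 6.45 FPKM to the muscle isoform Cox6a2 at 5902 FPKM. The highest genes of the other complexes were Sdhb at 1203 FPKM, Uqcr11 at 1557 FPKM and Atp5b, the catalytic beta subunit of ATP synthase, at 4702 FPKM. Levels varied little between animals: the median coefficient of variation over the 12 mice was 8.91% in complex I, 6.45% in complex II, 10.5% in complex III, 7.99% in complex IV and 7.35% in complex V.

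**Figure D1:**
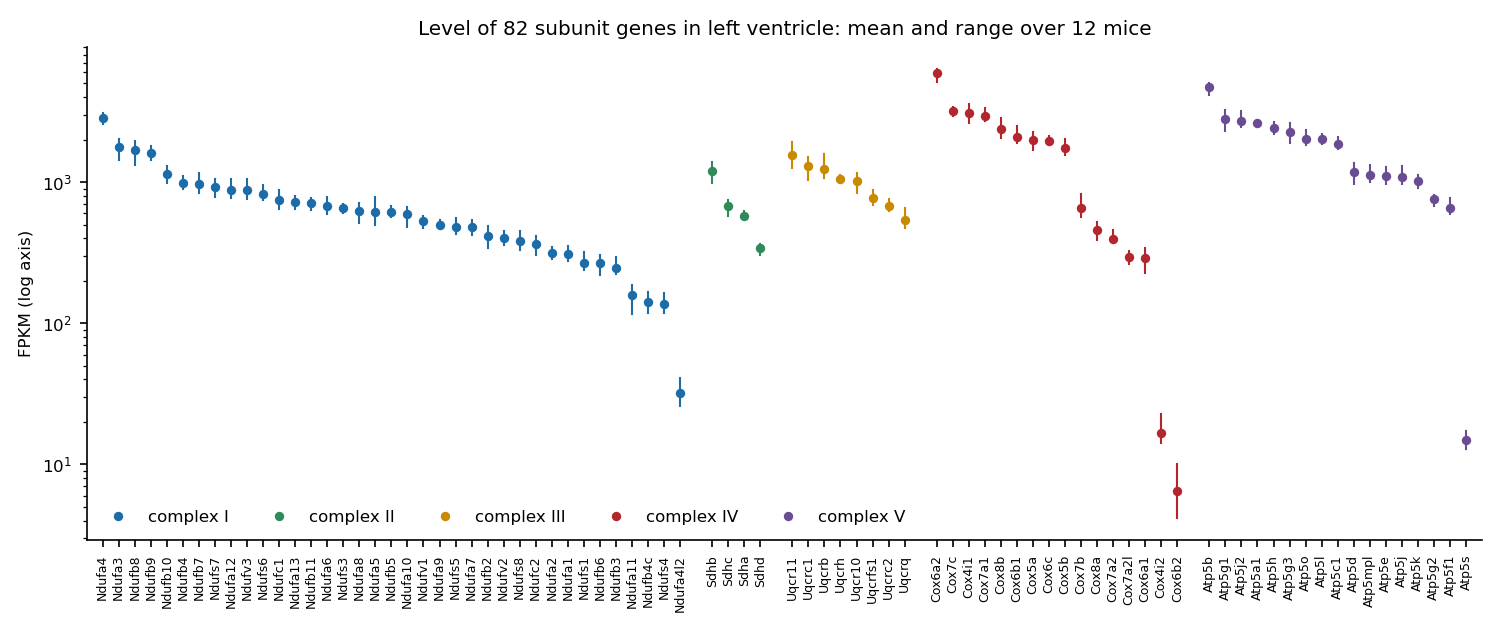
Mean FPKM of 82 of the 83 tested subunit genes over 12 mice (points, log axis) with the lowest and highest mouse (lines), grouped by complex and sorted by level. Cox6a2 and Atp5b are the highest, and Ndufa4l2, Cox4i2, Cox6b2 and Atp5s lie far below the rest of their complexes.

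Muscle isoforms predominated over their ubiquitous partners in every library. Cox6a2 was 17.2 to 24.6 times as abundant as Cox6a1, Cox7a1 was 6.93 to 8.15 times as abundant as Cox7a2, and Cox8b was 4.51 to 6.82 times as abundant as Cox8a. Cox4i1, the isoform of most tissues, exceeded Cox4i2, which is known from hypoxia-sensing and perivascular cells, by 147 to 209 times. Of the genes for subunit c, the proton-carrying ring of ATP synthase, Atp5g1 averaged 2814 FPKM, Atp5g3 averaged 2271 FPKM and Atp5g2 averaged 757 FPKM over the 12 mice. Cox6a1 made up 5.42% ± 0.0599 of the Cox6a1 and Cox6a2 total in TAC+control (SD, n = 3), against 4.49% ± 0.448 in Sham+control, 4.43% ± 0.504 with the drug after sham surgery and 4.32% ± 0.432 with it after TAC. All 3 TAC+control mice, at 5.36% to 5.48%, lay above the other 9 mice, the highest of which stood at 5.00%. Cox4i2 was separated likewise. Its share of the Cox4i2 and Cox4i1 total was 0.477% to 0.490% in TAC+control, below the other 9 mice, the lowest of which stood at 0.502%. For Cox7a2 in its pair with Cox7a1, the Sham+pimobendan mice (11.1% to 11.2%) lay below the Sham+control mice (11.8% to 12.4%). After TAC the mean share went the other way, from 11.4% without to 12.2% with the drug, and the groups overlapped (10.9% to 12.1% and 11.9% to 12.6%).

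Ratios within a library do not depend on its scaling. They were not adjusted for the GC content of the transcripts, which was 58.8% for Cox6a1 and 52.8% for Cox6a2. For each factor 5 isoform ratios were tested by exact two-sided permutation within the strata of the other factor. Each difference is an average over both levels of the other factor. The Cox6a1 to Cox6a2 ratio differed with pimobendan by -0.19 on the log2 scale (exact permutation p = 0.09, adjusted p = 0.45 over the 10 tests). Its mean log2 ratio went from -4.42 to -4.44 with the drug after sham surgery and from -4.13 to -4.47 after TAC. A difference between surgeries was not tested for the ratios. The smallest p belonged to Cox4i2 over Cox4i1, which differed after TAC by -0.16 (p = 0.065, adjusted p = 0.45, exact permutation). Across the other 8 tests p lay between 0.155 and 0.825, and no ratio passed. With 400 permitted splits the smallest p that can be reached is 0.005. After adjustment over the 10 tests, a test at that p would not pass unless another test also had a low p. The absence of a passing ratio therefore cannot decide whether a single ratio differed.

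**Figure D2:**
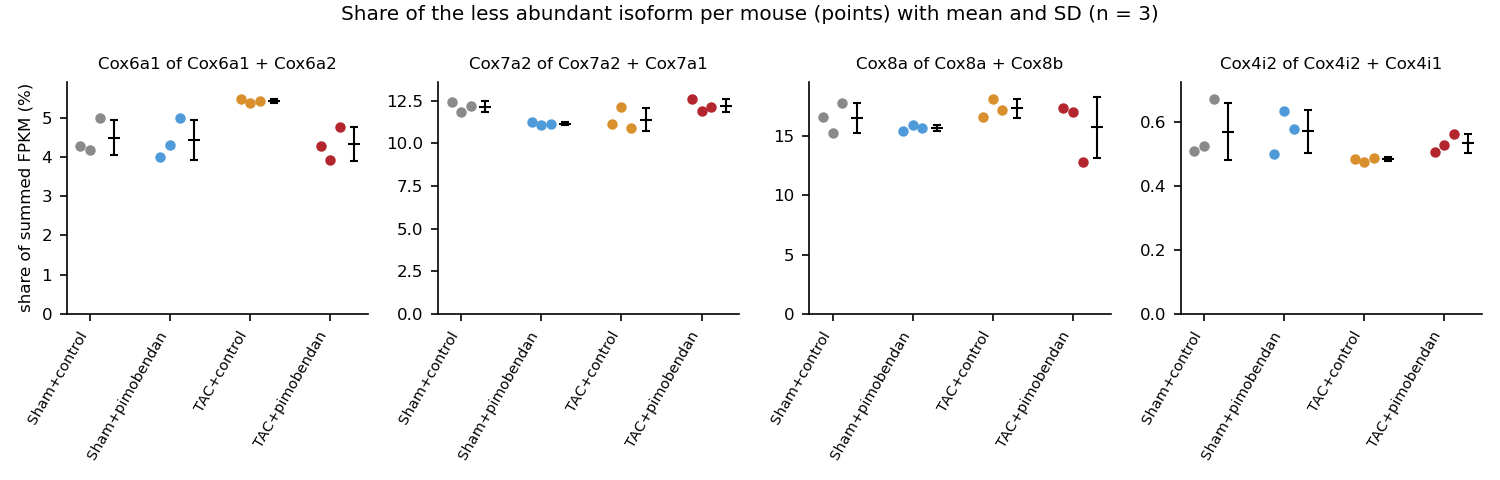
Share of the less abundant isoform in the summed FPKM of each pair (vertical axis, %), per mouse (points) with group mean and SD (n = 3). The 3 TAC+control mice lie at 5.36% to 5.48% for Cox6a1, above the other 9, and below the other 9 for Cox4i2, while the groups overlap for Cox8a.

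Promoter sequences are shown for 5 genes on which the results below turn. Cox6a1 was the single subunit gene past the test, Sdhb had the smallest p in the comparison of TAC with sham under pimobendan, Cox7b had the opposite direction to most members, and Cox8a with Cox8b is a pair of a ubiquitous and a muscle isoform. Each window is RefSeq's, on build GRCm38.p6, and runs 5′ to 3′ on the strand of the gene from 250 bases before to 50 after the annotated start. Capitals mark matches, on either strand, to 4 motifs: GCGCATGC (nuclear respiratory factor NRF1), CCGGAAG (ETS factors including GABP, also called NRF2), AAGGTCA (the core site of estrogen-related receptors, ERR) and CCATNTT (YY1). These factors are known regulators of nuclear genes for mitochondrial proteins. The windows are chr5:115348909-115349208 (minus strand) for Cox6a1, chr4:140961021-140961320 (plus) for Sdhb, chrX:106015450-106015749 (plus) for Cox7b, chr19:7217567-7217866 (minus) for Cox8a and chr7:140900397-140900696 (minus) for Cox8b.
Cox6a1: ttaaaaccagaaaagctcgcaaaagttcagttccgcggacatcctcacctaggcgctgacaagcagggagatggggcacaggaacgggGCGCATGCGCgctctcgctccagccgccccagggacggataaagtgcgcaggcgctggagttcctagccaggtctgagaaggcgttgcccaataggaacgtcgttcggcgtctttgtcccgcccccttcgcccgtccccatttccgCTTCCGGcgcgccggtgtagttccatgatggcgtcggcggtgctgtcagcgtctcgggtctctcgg
Sdhb: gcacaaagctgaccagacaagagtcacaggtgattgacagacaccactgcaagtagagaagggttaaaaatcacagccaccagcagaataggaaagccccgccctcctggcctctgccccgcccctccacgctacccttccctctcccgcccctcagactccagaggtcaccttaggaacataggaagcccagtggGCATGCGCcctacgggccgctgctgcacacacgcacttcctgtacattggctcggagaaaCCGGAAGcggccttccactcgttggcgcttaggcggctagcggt
Cox7b: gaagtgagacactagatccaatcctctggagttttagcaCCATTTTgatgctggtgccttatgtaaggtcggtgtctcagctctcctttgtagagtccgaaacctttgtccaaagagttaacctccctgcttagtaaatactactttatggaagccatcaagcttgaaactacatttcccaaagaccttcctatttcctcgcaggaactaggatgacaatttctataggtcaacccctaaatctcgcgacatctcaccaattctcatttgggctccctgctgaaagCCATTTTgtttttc
Cox8a: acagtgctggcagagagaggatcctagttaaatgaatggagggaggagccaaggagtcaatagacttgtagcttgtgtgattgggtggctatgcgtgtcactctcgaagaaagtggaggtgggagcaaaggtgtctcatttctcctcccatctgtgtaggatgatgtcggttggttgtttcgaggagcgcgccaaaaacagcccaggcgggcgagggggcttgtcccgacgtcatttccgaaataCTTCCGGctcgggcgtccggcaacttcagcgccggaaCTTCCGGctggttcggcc
Cox8b: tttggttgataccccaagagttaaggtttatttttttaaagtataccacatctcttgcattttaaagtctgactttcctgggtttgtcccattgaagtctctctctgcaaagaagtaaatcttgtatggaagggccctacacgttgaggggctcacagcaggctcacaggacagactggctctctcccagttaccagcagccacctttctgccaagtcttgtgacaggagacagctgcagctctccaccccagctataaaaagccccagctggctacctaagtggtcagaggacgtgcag
In the Cox6a1 window the run of capitals GCGCATGCGC is an NRF1 match on each strand, the matches overlapping, and an ETS match on the opposite strand lies closer to the start. Sdhb also had an NRF1 and an ETS match, Cox7b had 2 YY1 matches, Cox8a had 2 ETS matches and Cox8b had no match. The windows also differed in composition: that of Cox6a1 had 63% GC and 32 CpG, that of Cox7b 43.3% GC and 5 CpG, that of Cox8a 56% GC and 19 CpG, and that of Cox8b 48.3% GC and 2 CpG.

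The same letters were counted in the promoters of the subunit genes and in all RefSeq windows, with no test of the difference. Of the 85 genes, 69 had a window. NRF1 letters occurred in 10 of the 69 genes (14.5%), against 3.05% of the 27025 genes with windows, and ETS letters in 16 (23.2%), against 9.93%. ERR letters occurred in 8 (11.6%), against 5.38%, and YY1 letters in 21 (30.4%), against 18.2%. Over all 32851 windows, several of which can belong to a gene, the shares were 2.71%, 8.86%, 4.72% and 16.1%. The members' windows had a median GC content of 57.3% and a median of 19 CpG, against 52.7% and 7 over all windows, and the shares were not adjusted for that composition. A match is a description of the letters only.

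Pressure overload without drug was compared first, as TAC+control against Sham+control. No subunit gene passed the test (0 of 83, limma with Benjamini-Hochberg adjustment over all genes, smallest adjusted p = 0.556), and 0.0% of all 11415 genes did. Of the members, 58 had positive and 25 negative log2 fold changes with a median of 0.04, and the median of all genes tested was -0.06. The median moved both ways with the processing. It was 0.11 under median-ratio scaling with 5 of 83 negative and 0.10 after GC adjustment with 7 of 83 negative, but -0.003 on TPM with 45 of 84 negative, -0.03 under quantile normalization with 52 of 83 negative, and -0.01 without the first Sham+control mouse. Relative to the median of all genes it was 0.10 as deposited, 0.10 on TPM, 0.11 under median-ratio scaling, 0.10 after GC adjustment, -0.04 under quantile normalization and 0.03 without that mouse. Unadjusted p was under 0.05 for 2 members, the complex IV genes Cox7a1 and Cox6a1, and over all genes for 171 with a positive and 780 with a negative value.
Cox7a1 stood at 2707, 2879 and 2754 FPKM in the Sham+control mice and at 3053, 3284 and 3183 FPKM in the TAC+control mice (log2 fold change 0.19 ± 0.07, adjusted p = 0.556, limma). Cox6a1 stood at 251.5, 272 and 325 FPKM in Sham+control and at 341, 343 and 334 FPKM in TAC+control (0.27 ± 0.10, adjusted p = 0.561, limma). In each of these genes all TAC+control mice lay above all Sham+control mice, and in Ndufb3 all lay below, so groups did not overlap for 3 members (3 of 83), whereas they did not overlap for 12.7% of all genes. The smallest p of the other complexes belonged to Ndufa1 (-0.14 ± 0.08), Sdha (-0.07 ± 0.06), Uqcr10 (0.13 ± 0.10) and Atp5h (0.09 ± 0.07), with adjusted p between 0.685 and 0.751 (limma). By complex the medians lay between 0.03 and 0.05.

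In the loaded ventricle, most subunit genes had lower values with pimobendan, and 1 of them passed the test. TAC+pimobendan was set against TAC+control. Of the 83 members, 70 had negative and 13 positive log2 fold changes, with a median of -0.13, while the median of all genes tested was 0.10. A single member, Cox6a1, was called, and it fell. Over all genes 373 (3.27%) were called, of which 13, or 0.114% of those tested, were lower, and unadjusted p was under 0.05 for 22 members with a negative and 3 with a positive fold change (495 and 2545 over all genes).

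Cox6a1 encodes the ubiquitous form of a small regulatory subunit of cytochrome c oxidase and lies at chr5:115345654-115348955 on the minus strand (deposited coordinates, GRCm38). It stood at 341, 343 and 334 FPKM in the TAC+control mice and at 255, 226.5 and 258 FPKM in the TAC+pimobendan mice. The groups did not overlap, and the treated mice lay in or below the range of the Sham+control (251.5 to 325 FPKM) and Sham+pimobendan mice (261 to 326 FPKM). The log2 fold change was -0.46 ± 0.10, 0.726 times, with an adjusted p of 0.0431 (limma), just under the threshold of 0.05. It was negative under all 17 alternatives in this comparison, at -0.58 to -0.39, and was called under 4 of them, with adjusted p from 0.0271 to 0.163. The 4 were TPM, a filter on mean level, leaving out the first TAC+pimobendan mouse, and a replicate block in a fit of the TAC groups alone. That block fit, added after seeing the data because same-numbered TAC mice deviated together, gave -0.46 ± 0.08 (adjusted p = 0.0471, limma). The labels do not pair these mice. The block fit called 3 members, all lower (Cox6a1, Atp5d with the same adjusted p, and Cox6b2 just under the threshold), and 361 of all genes (3.16%). Same-numbered mice did not deviate together across surgeries. With the block in the fit of all 4 groups Cox6a1 had an adjusted p of 0.0788 (limma), 0 members and 1 gene of 11415 being called. The call was lost without any single TAC+control mouse (adjusted p = 0.149, 0.0584 and 0.102 for the first, the second and the third) and without the second (0.163) or the third (0.133) TAC+pimobendan mouse, all by limma.

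The other complexes are represented by the member with the smallest p in each, none of them called. Atp5d, the delta subunit in the rotating stalk of ATP synthase, stood at 1366, 1294 and 1233 FPKM in TAC+control and at 1023, 988 and 966 FPKM in TAC+pimobendan (-0.38 ± 0.10, adjusted p = 0.0534, limma). Ndufs7, an iron-sulfur core subunit of complex I, stood at 1022, 1058 and 967 FPKM and at 843, 798 and 783 FPKM (-0.33 ± 0.10, adjusted p = 0.0633, limma). Sdhb, the iron-sulfur subunit of complex II, stood at 1206, 1352 and 1220.5 FPKM and at 1114, 1025 and 979 FPKM (-0.28 ± 0.08, adjusted p = 0.0704, limma). In none of these 3 genes did the groups overlap. Uqcrc1, a core subunit of complex III, stood at 1355, 1512 and 1360 FPKM without drug and at 1225, 1146 and 1034 FPKM with it, again with no overlap (-0.31 ± 0.10, adjusted p = 0.071, limma). Cox6b2 had the most negative value of the set (-0.63 ± 0.21, adjusted p = 0.0918, limma), at a level of only 4.18 to 9.89 FPKM in these groups.

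The direction was shared by the 5 complexes. Negative fold changes were found in 33 of 38 complex I genes (median -0.16), 3 of 4 complex II genes (-0.12), 7 of 8 complex III genes (-0.11), 14 of 16 complex IV genes (-0.13) and 13 of 17 complex V genes (-0.12). Among the core subunits of complex I, which include those with its flavin and iron-sulfur clusters, negative values were found in Ndufs7, Ndufs8 (-0.26 ± 0.10), Ndufv2 (-0.09 ± 0.09), Ndufv1 (-0.08 ± 0.07) and Ndufs3 (-0.06 ± 0.07). Another core subunit, Ndufs1, was positive at 0.23 ± 0.09 (adjusted p = 0.129, limma). Of the 31 accessory complex I genes 27 were negative. In complex III the iron-sulfur protein Uqcrfs1 stood at -0.12 ± 0.08 and the core subunit Uqcrc2 at -0.02 ± 0.08. The catalytic subunits of ATP synthase, Atp5b (-0.17 ± 0.06) and Atp5a1 (-0.12 ± 0.06), and the subunit c genes Atp5g1 (-0.25 ± 0.10), Atp5g3 (-0.20 ± 0.10) and Atp5g2 (-0.15 ± 0.07) lay close together. The abundant muscle isoforms stood at -0.17 ± 0.07 for Cox7a1, -0.12 ± 0.06 for Cox6a2 and -0.03 ± 0.10 for Cox8b, and Cox4i1 stood at -0.16 ± 0.09.

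Complete separation of the groups was common in the negative direction. In 41 members (49.4%) every TAC+pimobendan mouse lay below every TAC+control mouse, whereas this held for 6.64% of all genes. In 2 members, Sdha and Atp5s (2.41%), every treated mouse lay above, against 23.3% of all genes. Members share libraries and are not independent, so these counts carry no test. The count of 41 moved with the scaling. It was 27 (32.5%, all genes 3.24%) on TPM, 61 (73.5%, 16.3%) under median-ratio scaling, 52 (62.7%, 12.5%) after adjustment for GC content and 13 (15.7%, 12.1%) under quantile normalization. Likewise 60 of 84 members were negative on TPM and 52 of 83 under quantile normalization. Relative to the median of all genes the members' median stood at -0.23 as deposited, -0.24 on TPM and -0.24 under median-ratio scaling, which moves the median of all genes by about 0.1, and at -0.01 under quantile normalization, which forces the libraries to a common distribution.

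**Figure D3:**
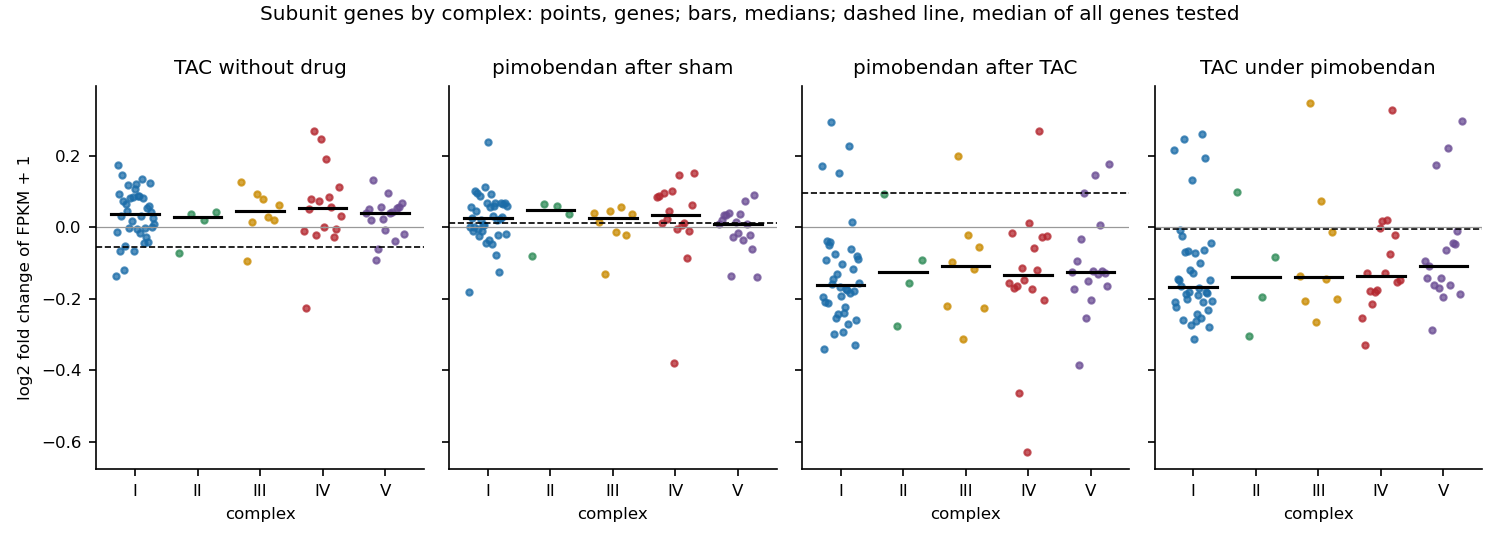
Log2 fold change of FPKM + 1 for each of the 83 tested subunit genes (points) by complex, with medians of the complex (bars) and of all genes tested (dashed line), in 4 comparisons. On this scale 70 of 83 points lie below 0 for pimobendan after TAC and 69 of 83 for TAC under pimobendan. The counts are 25 for TAC without drug and 28 for pimobendan after sham. Under quantile normalization, in the same order, the 4 counts are 52, 58, 52 and 40.

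A small group of members went the other way, and these were named after their values were seen. Cox7b, a small complex IV subunit, stood at 577, 700 and 586 FPKM in TAC+control and at 617, 814 and 826 FPKM in TAC+pimobendan (0.27 ± 0.11, adjusted p = 0.157, limma). Ndufa5, an accessory subunit of complex I, stood at 622, 599.5 and 498 FPKM and at 603, 777 and 730 FPKM (0.29 ± 0.11, adjusted p = 0.117, limma). In both genes, as in Ndufs1 at 253, 266 and 253 FPKM against 266, 319 and 322 FPKM, the first treated mouse lay with the untreated mice and the other treated mice above them. Sdha, the flavoprotein of complex II, was the one subunit of that complex with a positive value (0.09 ± 0.06, adjusted p = 0.349, limma), against -0.16 ± 0.08 for Sdhc and -0.09 ± 0.08 for Sdhd, the membrane anchors. Without the first TAC+pimobendan mouse 7 of 83 members were called, against 10.4% of all genes. They were Cox6a1, Uqcrc1, Atp5d and Sdhb, all lower, and Ndufs1, Cox7b and Ndufa5, all higher. That exclusion also raised the calls over all genes from 373 to 1190, whereas they were 0 without the third TAC+control or the second TAC+pimobendan mouse, 3 without the first TAC+control or the third TAC+pimobendan mouse, and 409 without the second TAC+control mouse.

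**Figure D4:**
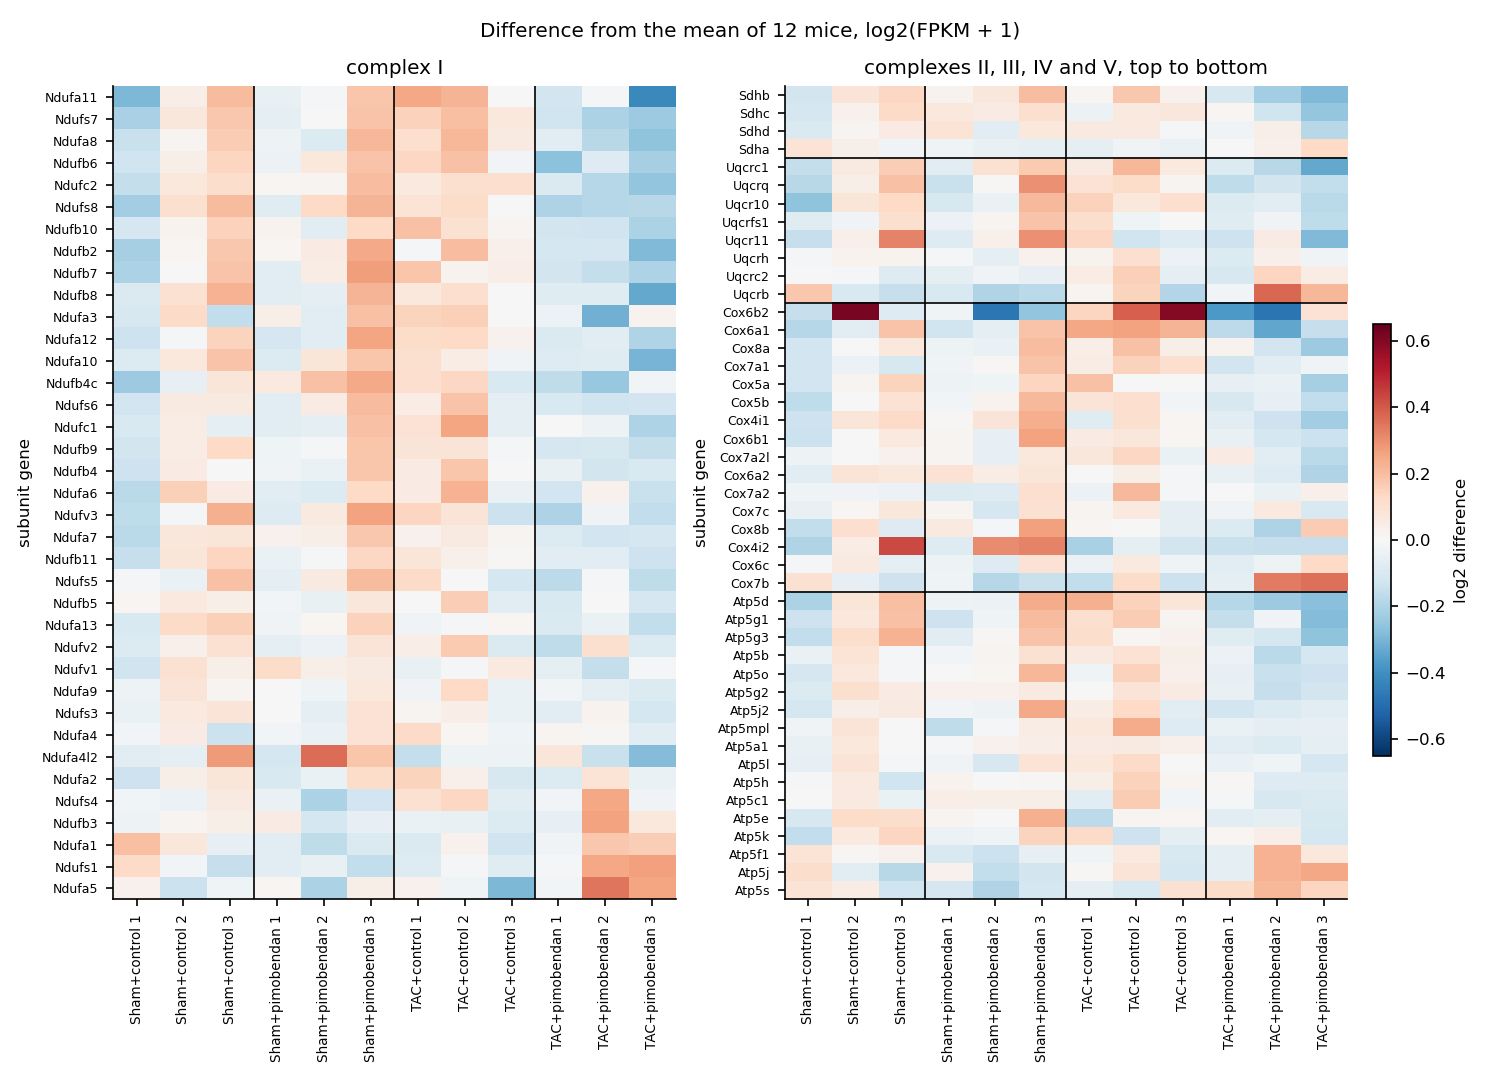
Difference of each mouse from the mean of 12 mice, in log2(FPKM + 1), for 82 of the 83 tested subunit genes (rows, sorted by pimobendan after TAC within a complex) and 12 mice (columns); red is higher, blue lower. The 3 TAC+pimobendan columns and Sham+control 1 are mostly blue, with red in TAC+pimobendan 2 and 3 in the lowest rows of complex I (Ndufa5, Ndufs1) and in Uqcrb, Cox7b and Atp5s.

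Base composition of the transcripts moved with these results. Among the 82 members with an annotated transcript, GC content ran from 42% (Cox7b) to 61.1% (Atp5d). Over these members Spearman's rho between GC content and the fold change was -0.47, close to -0.49 over all genes, a description across genes of the same libraries. Of 33 members below the median GC content of all genes (51.2%), 22 were negative, with a median of -0.09 where all genes of that class had 0.20. Of 49 members at or above it, 47 were negative, with a median of -0.16 where all genes of that class had -0.002. After each library was adjusted for its GC trend, 78 of 83 members were negative with a median of -0.19. Cox6a1 then stood at -0.44 ± 0.09 (adjusted p = 0.109, limma) and was no longer called, where 0 of all genes were called. Its unadjusted p was 0.000276 there, against 0.00066 as analysed (limma). The GC trend of a library, its rho across genes with the deviation from the mean of all libraries, was -0.53 to -0.20 in the TAC+pimobendan mice and 0.02 to 0.29 in the TAC+control mice. It was -0.35 in the first Sham+control mouse, whose subunit genes were also low, and 0.085 and 0.465 in the other mice of that group. In the Sham+pimobendan mice the trend was 0.135, 0.356 and 0.531. The second of these, at 0.356, still had its median subunit gene at -0.08 relative to the median of all genes, against -0.14 in the first Sham+control mouse. The relation between trend and subunit genes across libraries was not tested.

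**Figure D5:**
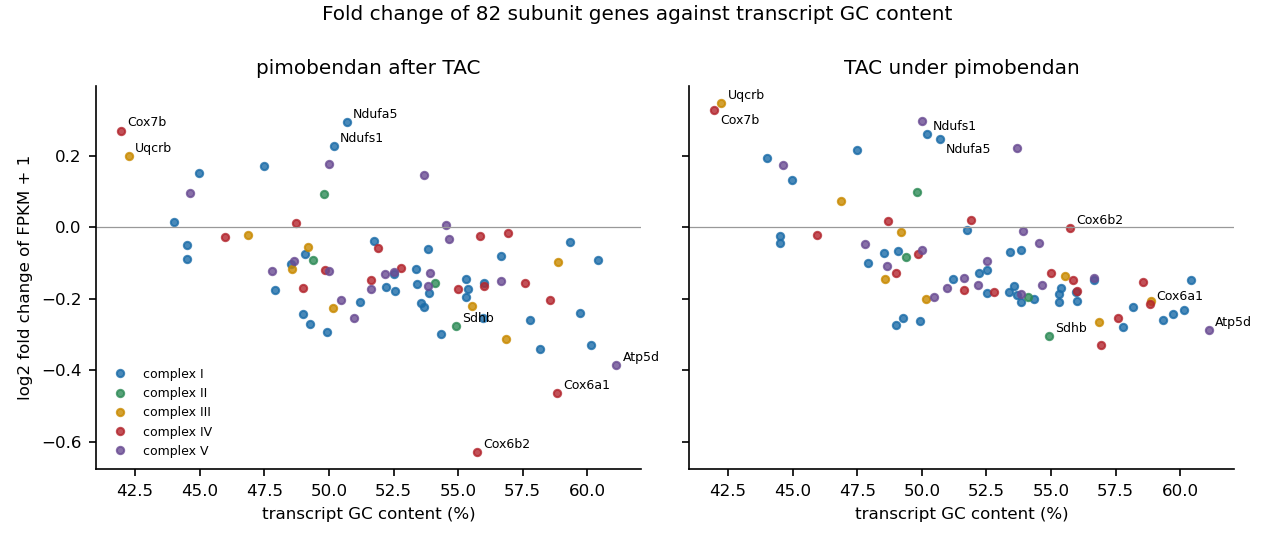
Log2 fold change of FPKM + 1 (vertical axis) against GC content of the transcript (horizontal axis, %) for 82 subunit genes, colored by complex. Low-GC Cox7b and Uqcrb lie above 0 and high-GC Atp5d and Cox6a1 below, with Spearman's rho of -0.47 for pimobendan after TAC and -0.63 for TAC under pimobendan.

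In sham hearts no subunit gene differed detectably with pimobendan. Sham+pimobendan was set against Sham+control. No member passed (0 of 83, limma, smallest adjusted p = 0.91), 0.0% of all genes did, and unadjusted p was under 0.05 for 2 members, Ndufb4c above and Ndufa1 below, and over all genes for 299 above and 219 below. The median was 0.02 with 28 negative members, close to the 0.01 of all genes, and it was -0.03 without the first Sham+control mouse with 58 negative and -0.04 without the third Sham+pimobendan mouse with 61 negative. It was -0.004 after GC adjustment with 45 negative, -0.007 after length adjustment with 45 negative, and 0.002 on TPM with 41 of 84 negative. Groups did not overlap for 5 members, Cox7a1 above and Ndufa1, Ndufs4, Sdha and Atp5f1 below, or 5 of 83, whereas this held in either direction for 11.1% of all genes. Cox7a1 stood at 2707, 2879 and 2754 FPKM in Sham+control and at 2911, 2971 and 3362 FPKM in Sham+pimobendan (0.15 ± 0.07, adjusted p = 0.91, limma). The remaining members with the smallest p of their complex were Ndufb4c (0.24 ± 0.10), Sdha (-0.08 ± 0.06), Uqcrb (-0.13 ± 0.11) and Atp5f1, a stator subunit of ATP synthase (-0.14 ± 0.08). Cox6a1 stood at 0.02 ± 0.10, with a 95% interval from -0.20 to 0.25.

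Under pimobendan, hearts with TAC had lower values than sham hearts for most subunit genes, again with no member past the test. This comparison of TAC+pimobendan with Sham+pimobendan shares its treated libraries with the one above, so the resemblance between them is partly built in. Members called were 0 of 83 (limma, smallest adjusted p = 0.0559), against 4.89% of all genes, and unadjusted p was under 0.05 for 23 members with a negative and 9 with a positive value (695 and 1915 over all genes). Negative values were found in 69 of 83 members, with a median of -0.14 where all genes had -0.006. On TPM 61 of 84 were negative, with a median of -0.10. Under quantile normalization 58 of 83 were negative with a median of -0.06, and without the third Sham+pimobendan mouse 60 with a median of -0.08 and 11 members at an unadjusted p under 0.05. Relative to all genes the median was -0.14 as deposited and on TPM, -0.02 under quantile normalization and -0.07 without that mouse. Groups did not overlap in 36 members that were lower (43.4%, all genes 9.35%) and in 6 that were higher (7.23%, all genes 18.6%). The count of 36 was 22 on TPM (26.5%, all genes 5.67%), 41 under median-ratio scaling (49.4%, 14.3%) and 21 after GC adjustment (25.3%, 9.59%). Under quantile normalization it was 12, and that share of 14.5% was near the 12.9% of all genes.

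Sdhb stood nearest to the threshold, at 1214, 1262 and 1377 FPKM in Sham+pimobendan and 1114, 1025 and 979 FPKM in TAC+pimobendan (-0.30 ± 0.08, adjusted p = 0.0559, limma). All treated TAC mice lay below all treated sham mice, and Sdhb was called on TPM (-0.25 ± 0.07, adjusted p = 0.0493, limma). Cox4i1, the common form of a large nuclear subunit of complex IV, stood at -0.25 ± 0.09 (adjusted p = 0.103, limma) and Ndufb4c at -0.31 ± 0.10 (adjusted p = 0.0811, limma). Atp5s and Uqcrb were higher without overlap. Atp5s, a gene of low level, stood at 13.6, 12.8 and 13.5 FPKM in Sham+pimobendan and at 16.1, 17.2 and 16.3 FPKM in TAC+pimobendan (0.30 ± 0.09, adjusted p = 0.070, limma). Uqcrb, a small subunit of complex III, stood at 1136, 1066 and 1080 FPKM and at 1202, 1579 and 1415 FPKM (0.35 ± 0.11, adjusted p = 0.0942, limma). Members with a positive value in this comparison included Ndufa1, Ndufs1, Ndufs4, Sdha and Cox7b. Without the first TAC+pimobendan mouse 4 of 83 members were called, Ndufs1, Cox7b and Uqcrb higher and Sdhb lower, against 1225 of all genes (10.7%). Calls over all genes were 328 without the first Sham+pimobendan mouse and 0 without the second or the third of that group, or without the second or the third TAC+pimobendan mouse. Here rho with GC content over the members was -0.63 (all genes -0.62), and after GC adjustment 71 of 83 members were negative with a median of -0.10.

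Whether the drug's effect differed between loaded and sham hearts was tested by the interaction, the difference between both drug effects. No member passed (0 of 83, limma, smallest adjusted p = 0.107) and 0.0% of all genes did, with unadjusted p under 0.05 for 16 members with a negative and 4 with a positive value (421 and 1891 over all genes). Of the members 71 were negative, with a median of -0.17 (all genes 0.07), and the median moved with the processing. It was -0.08 on TPM with 59 of 84 negative, -0.28 under median-ratio scaling with 72 negative, and -0.04 under quantile normalization with 52 negative, equal to that of all genes there. Without the first Sham+control mouse it was -0.11 with 65 negative and 9 members at an unadjusted p under 0.05, and without the third Sham+pimobendan mouse -0.12 with 66 negative and 9 such members. Cox7a1 (-0.32 ± 0.10, adjusted p = 0.107, limma) and Cox6a1 (-0.48 ± 0.15, adjusted p = 0.108, limma) had the smallest p. They were followed within their complexes by Ndufb4c (-0.43 ± 0.14), Atp5d (-0.42 ± 0.14), Sdhb (-0.34 ± 0.12) and Uqcrc1 (-0.36 ± 0.14). In Cox7a1 the log2 fold change with the drug was 0.15 in sham and -0.17 in TAC hearts. The 95% interval of the Cox6a1 term ran from -0.80 to -0.17 before adjustment for the number of genes. Without the first TAC+pimobendan mouse Cox7b was called (0.49 ± 0.13, adjusted p = 0.0493, limma), 1 of 83 members against 773 of all genes (6.77%).

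Other genes of the system were read in the comparison of pimobendan after TAC from lists of known function. Of 10 chain genes outside the symbol rule, among them cytochrome c1 (Cyc1, -0.27 ± 0.11) and cytochrome c (Cycs, -0.19 ± 0.11), 6 were negative, with a median of -0.12 and 0 called (3 negative and 1 positive with unadjusted p under 0.05). Of 47 assembly factors 27 were negative with a median of -0.07, and Sco2, which delivers copper to complex IV, fell from 20.3 ± 2.22 to 13.4 ± 0.985 FPKM (SD, n = 3; -0.56 ± 0.12, adjusted p = 0.0409, limma). Of 7 genes marking mitochondrial content, such as citrate synthase (Cs, -0.14 ± 0.06), 5 were negative with a median of -0.10 and 0 called (2 negative at unadjusted p under 0.05).
Of 15 regulators 9 were positive with a median of 0.13. Gabpa, the DNA-binding subunit of GABP, rose from 7.64 ± 0.369 to 11.9 ± 1.07 FPKM (0.58 ± 0.12, adjusted p = 0.0409, limma), and the estrogen-related receptor gene Esrrg rose from 5.96 ± 0.575 to 9.31 ± 0.626 FPKM (0.57 ± 0.12, adjusted p = 0.0409, limma). Esrra stood at -0.27 ± 0.09 (adjusted p = 0.0778, limma), and the coactivator gene Ppargc1a at 0.25 ± 0.25. Under pimobendan, TAC hearts had higher Gabpa (0.55 ± 0.12, adjusted p = 0.0342), Tfb2m, a mitochondrial transcription factor (0.48 ± 0.12, adjusted p = 0.0408), and the complex I assembly factor Ndufaf4 (0.57 ± 0.13, adjusted p = 0.0361, all limma) than sham hearts. The calls in both comparisons depended on the processing. For pimobendan after TAC, Sco2 and Gabpa were called under 4 and Esrrg under 5 of 17 alternatives, with adjusted p up to 0.161, and for TAC under pimobendan Gabpa was called under 6, and Tfb2m and Ndufaf4 under 4 each, of 16, with adjusted p up to 0.462 (limma). Each gene kept its direction in all of them. These are messenger levels, and their part in the levels of the subunit genes was not tested.

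Markers of cell types were read beside the subunit genes in each comparison, and their part in the subunit results was not tested. In pimobendan after TAC all 8 macrophage markers were positive (median 0.31, Ctss called), with sums of 165 to 221 FPKM in TAC+pimobendan and 154 to 172 FPKM in TAC+control. All 6 tested erythroid markers were negative (median -1.37, Alas2 called), with sums of 1154 to 2295 FPKM against 4212 to 6719 FPKM. The 8 cardiomyocyte markers, 5 of them negative with a median of -0.08, summed to 51681 to 56511 FPKM against 55958 to 58074 FPKM, with Actn2 lower and Pln higher among the genes called. These 4 calls were kept under 4 or 5 of 17 alternatives each. Endothelial sums were 260 to 309 FPKM against 242 to 299 FPKM, fibroblast sums 387 to 465 FPKM against 317 to 403 FPKM, and smooth muscle and pericyte sums 199 to 215 FPKM against 182 to 217 FPKM. Adipocyte markers summed to at most 1.87 FPKM in any library.
In TAC without drug no marker was called, but all 6 endothelial (median -0.24), all 6 smooth muscle and pericyte (-0.38) and all 8 macrophage markers (-0.19) were negative, and all 6 erythroid markers were positive (1.11). Sham+control sums were 295 to 341 FPKM for endothelial, 192 to 286 FPKM for smooth muscle and pericyte, 160 to 202 FPKM for macrophage and 1563 to 3075 FPKM for erythroid markers. In TAC under pimobendan 5 of 6 endothelial markers were negative (median -0.36, Pecam1 and Esam called lower), as were 5 of 6 smooth muscle and pericyte markers (-0.27, Acta2 called lower), while all 6 erythroid markers were positive (0.79) and Pln was called higher. These 4 calls were kept under 4 to 7 of 16 alternatives. Sham+pimobendan sums were 298 to 415 FPKM for endothelial, 235 to 320 FPKM for smooth muscle and pericyte and 462 to 1916 FPKM for erythroid markers. In pimobendan after sham no marker was called, with all 6 endothelial markers positive (0.13) and 5 of 6 erythroid markers negative (-1.09).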

How the data were processed

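Values came from a single table in which the authors deposited an FPKM and a TPM value per gene and library; the submitters' processing notes list GRCm38 and the tools RSEM 1.2.12, HISAT2 2.0.4, DESeq2 1.4.5 and Bowtie2 2.2.5, with no role stated for any of them. Libraries were made from oligo(dT)-selected RNA with random hexamers, per the labels. The table holds no counts, so depth is unknown and no counting interval is given; the FPKM worth of 1 read, read from low values, differed between libraries by 0.908 to 1.28 times that of the first Sham+control library.

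The 11415 genes that reached 1 FPKM in 3 or more libraries entered limma 3.58.1 (R 4.3.3) on the scale log2(FPKM + 1) (limma-trend, 1 mean per group, all 12 libraries in a single fit, 8 residual degrees of freedom). Fold changes are on that scale, which understates changes of low genes, and are given ± SE. The Benjamini-Hochberg adjustment ran over all of them, and called means an adjusted p under 0.05. Of the 5 comparisons several share groups. The script was tested on simulated data with independent noise for each gene, which lacked the GC trends of these libraries.

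Alternatives were TPM, median-ratio scaling, quantile normalization, other filters and pseudocounts, a replicate block, fits of only the groups compared, adjustment for GC content or transcript length, and leaving out each mouse. The labels do not pair mice, but the deviations of same-numbered mice from their group means correlated at 0.101 to 0.208 in all 3 pairs of TAC+control and TAC+pimobendan, so these were treated as paired in an added fit with the replicate block. In the other comparisons between 2 groups the lowest pair was at -0.364 to -0.263. Differently numbered mice lay at -0.172 to 0.028 between the TAC groups. Deviations from a group mean cancel within the group, so positive values for same-numbered mice push these values down. This range therefore cannot show whether the mice were paired. Elsewhere correlations of differently numbered mice were larger, and the second Sham+control and first Sham+pimobendan mouse reached 0.434. GC content and length came from GENCODE M21. The start, end and strand of genes were those deposited by the authors, with the chromosome from RefSeq. The members, lists, motifs and comparisons were chosen with earlier results of these data known. Members were named where they were called, had the smallest p of their complex in a comparison, belonged to an isoform pair, had the highest level of their complex, or were core or catalytic subunits. Ndufa5, Cox7b, Cox6b2, Ndufb3, Ndufs4 and the genes of low level were named after their values were seen. The values of 1 tested member, which is included in the counts and medians, are not reported here.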

Additional observations from a re-analysis of the deposited data

How the results depend on the processing

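Members called in pimobendan after TAC numbered 1 as analysed and 3 of 84 on deposited TPM (Cox6a1 and Atp5d lower, Ndufa5 higher), where 9.69% of all genes were called. The number was 0 with median-ratio scaling, quantile normalization, no filter on low values, a pseudocount of 0.1 with no filter, only the groups compared, adjustment for GC content and adjustment for transcript length. Over all genes, in the same order, 0, 0, 0, 2, 0, 0 and 1 were called, so nearly all calls were lost and not those of the members alone. When each mouse was left out, 0 to 7 members were called. In TAC under pimobendan 1 member was called on TPM, where 6.08% of all genes were, and 0 to 4 when each mouse was left out, and in the interaction 0 to 1. The higher end of these ranges came each time from leaving out the first TAC+pimobendan mouse. There, in the same order of comparisons, 10.4%, 10.7% and 6.77% of all genes were called. Calls over all genes in pimobendan after TAC, 373 as analysed, ran from 0 to 1190 over the same alternatives. Members lower without overlap in pimobendan after TAC numbered 27 on TPM (all genes 3.24%) and 13 under quantile normalization (15.7% of members, all genes 12.1%), against 41. In TAC under pimobendan they numbered 22 (all genes 5.67%), 12 (14.5% of members, all genes 12.9%) and, after GC adjustment, 21 (all genes 9.59%), against 36; these counts under other scalings were chosen after seeing the data. No isoform ratio passed after adjustment under the alternatives run (smallest adjusted p = 0.10, exact permutation). With so few permitted splits a single ratio could not have passed alone there either. The cause of these changes was not tested. With the replicate block in the fit of all 4 groups 0 members, and 1 of all genes, were called in pimobendan after TAC. With the block in a fit of the TAC groups alone, added after seeing the data, 3 members were (all genes 3.16%), although the labels do not pair these mice. In the other comparisons the block in the fit of all 4 groups called 0 members, as without it, and took calls over all genes in TAC under pimobendan from 558 to 0.

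The 3 mice of each group limit every comparison, and without counts the sampling error of low genes such as Cox6b2, Cox4i2 and Atp5s cannot be separated from biological spread.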
